A study of Arabidopsis thaliana with 16 samples.

Results

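The genes described here were picked by how their mean level moved with a jasmonic acid (JA) spray in Arabidopsis leaves, given to plants that had or had not met JA as seedlings. Mean deposited CPM (read counts scaled to the library total) was taken over the 4 replicates of each group and 0.5 was added. A gene was kept if its largest group value was at least 2.5, if the ratio of challenged to unchallenged JA-history plants was at least 3, and if the same ratio in water-history plants lay between 0.67 and 1.5. Of 34262 genes listed, 36 met the rule, and 16514 met its level part. The libraries came from rosette leaves of accession Col-0. Seedlings were sprayed at 2 weeks with water or 1 mM JA (the history), and the same plants at 5 weeks with water or 0.1 mM JA (the challenge). The groups, named history then challenge, are W_W (water, water), W_JA (water, JA), JA_W (JA, water) and JA_JA (JA, JA), with 4 biological replicates each. All solutions held 0.02% Silwet L-77, water controls held the ethanol of the matching JA solution, harvest followed the challenge by 4 h, and a library pooled 8 leaves (4 a plant, 2 plants). No genotype differed between groups, and any other difference between plants of the 2 histories cannot be told apart from the seedling spray.

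JA is perceived through the receptor COI1, which removes JAZ repressors and frees MYC and other factors that turn on wound and herbivore defences. Salicylic acid (SA), made through the ICS1 route under the factors SARD1 and CBP60g, drives defence against biotrophic pathogens, and the JA and SA branches often oppose each other in leaves. Secreted defence proteins are folded in the endoplasmic reticulum (ER), whose chaperones, disulfide isomerases and sugar nucleotide transporters rise under a folding load and under SA. A further programme, run by the kinase SnRK1 and bZIP factors, raises catabolic genes when sugar is short or in the dark. Most members belong to these 3 settings, and none is a classical JA output.

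Counted reads per library ran from 32190193 to 34319939, so that 1 read was 0.0293 CPM in the library of median depth. All 36 members were among the 19224 genes kept by the low-count filter. Levels below are CPM scaled with TMM factors (a correction for library composition), given as mean ± SD with n = 4, and values of single libraries are listed in the order of replicates 1 to 4. Log2 differences carry their standard error and come from the edgeR quasi-likelihood test with Benjamini-Hochberg adjustment over all 19224 genes; "called" means an adjusted p under 0.05. As checks on the labels, the wound marker VSP2 averaged 3.69, 2735, 126 and 7436 CPM in W_W, W_JA, JA_W and JA_JA, and the JAZ repressor JAZ10 1.02, 24, 0.789 and 18.5. The SA marker PR1 averaged 500.4 ± 256 CPM in W_W, 530.0 ± 362 in W_JA, 0.0528 ± 0.0674 in JA_W and 0.282 ± 0.464 in JA_JA. All 4 markers of photosynthetic leaf cells were expressed, and their summed level was 26637 to 35148 CPM in W_W and 33915 to 42639 in JA_W. Single libraries were often the highest or lowest of their group. Lowest of their group were W_W replicate 4 for 20 of the 36 members, JA_W replicate 2 for 19, W_JA replicate 3 for 18 and JA_JA replicate 2 for 16. Highest were W_W replicate 1 for 24, JA_W replicate 1 for 17, JA_JA replicate 1 for 15 and W_JA replicate 2 for 14. JA_JA replicate 3 was the lowest of its group for 11 members, 7 of them SA genes. The values these libraries move are given beside the results. In pooled leaves, fewer cells of a type and less RNA per cell cannot be told apart.

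The rule took a thin slice of the genes that responded in JA-history plants. Of 298 genes with the level and a JA-history ratio of at least 3, 255 also had a water-history ratio above 1.5, 7 had one below 0.67 and 36 were members. The members nearest the bound of 3 were AT3G10020 at 3.006, the ER retrieval receptor ERD2 at 3.01 and TPS9 at 3.025, and the nearest genes outside were HR3 at 2.977, AT5G19230 at 2.938 and LDOX at 2.923. At the upper bound of 1.5 the water-history ratio was 1.497 in AAP4, 1.444 in ERD2 and 1.431 in SDR4 inside, and 1.504 in PME3, 1.514 in AT3G07350 and 1.526 in RLP43 outside. At the lower bound of 0.67 it was 0.695 in J8, 0.699 in UTR1 and 0.701 in AT3G48080 inside, and 0.658 in LURP1, 0.655 in SEN1 and 0.632 in AT3G15450 outside. Membership moved with single libraries: leaving out 1 library gave 27 to 60 members, and 12 of the 36 were kept whichever library was left out (SARD1, BBD1, AT3G22235, UTR3, DIN10, BXL1, TSA1, OFP15, MEE14, AAE5, AT1G02610 and AT2G24550). The set of 60 arose without JA_W replicate 1 and held 35 of the 36. On TMM-scaled CPM, the scale of the levels below, 7 members had a water-history ratio above 1.5: PCC1 (1.522), AAP4 (1.638), SAG20 (1.535), AT2G27310 (1.54), SDR4 (1.566), ERD2 (1.569) and AT1G15670 (1.525).

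How well the choice carried over to other libraries was read by choosing genes in 1 pair of replicates and reading them in the other, in all 6 ways. Between 35 and 70 genes were chosen, and the JA-history ratio in the other pair was above 1 in 67.1% to 100% of them and at least 3 in 30.0% to 88.6%, with a median ratio of 1.94 to 3.88. The water-history ratio stayed within its bounds in 37.1% to 77.1%, and 11 to 15 genes (21.4% to 42.9%) met the whole rule. The choice in replicates 3 and 4 carried over least for the JA-history ratio: of 70 genes, 21 had one of at least 3 in replicates 1 and 2. The choice in replicates 1 and 3 carried over least for the water-history bounds: 13 of 35 genes stayed within them in replicates 2 and 4, where the median water-history ratio was 1.538, above the bound. JA_W lay below W_W in 86.3% to 100% of the genes, with median log2 differences of -2.70 to -1.76.

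Seen against water-history plants, the members were genes that stood low after a JA history and came back under the challenge. In JA_W they stood at 0.957% to 41.9% of their W_W level (median 17.5%), below it in 36 of 36. In JA_JA they stood at 4.45% to 146% of their W_JA level (median 72.6%), below it in 32 of 36. The name "induced only after JA history" thus describes their ratio, and for most of them not a level above that of water-history plants. The rule ties the 2 histories together: the ratios it demands require that JA_W be lower than W_W, JA_JA be higher than W_JA, or some of both, and they do not fix how the difference is divided.

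**Figure D1:**
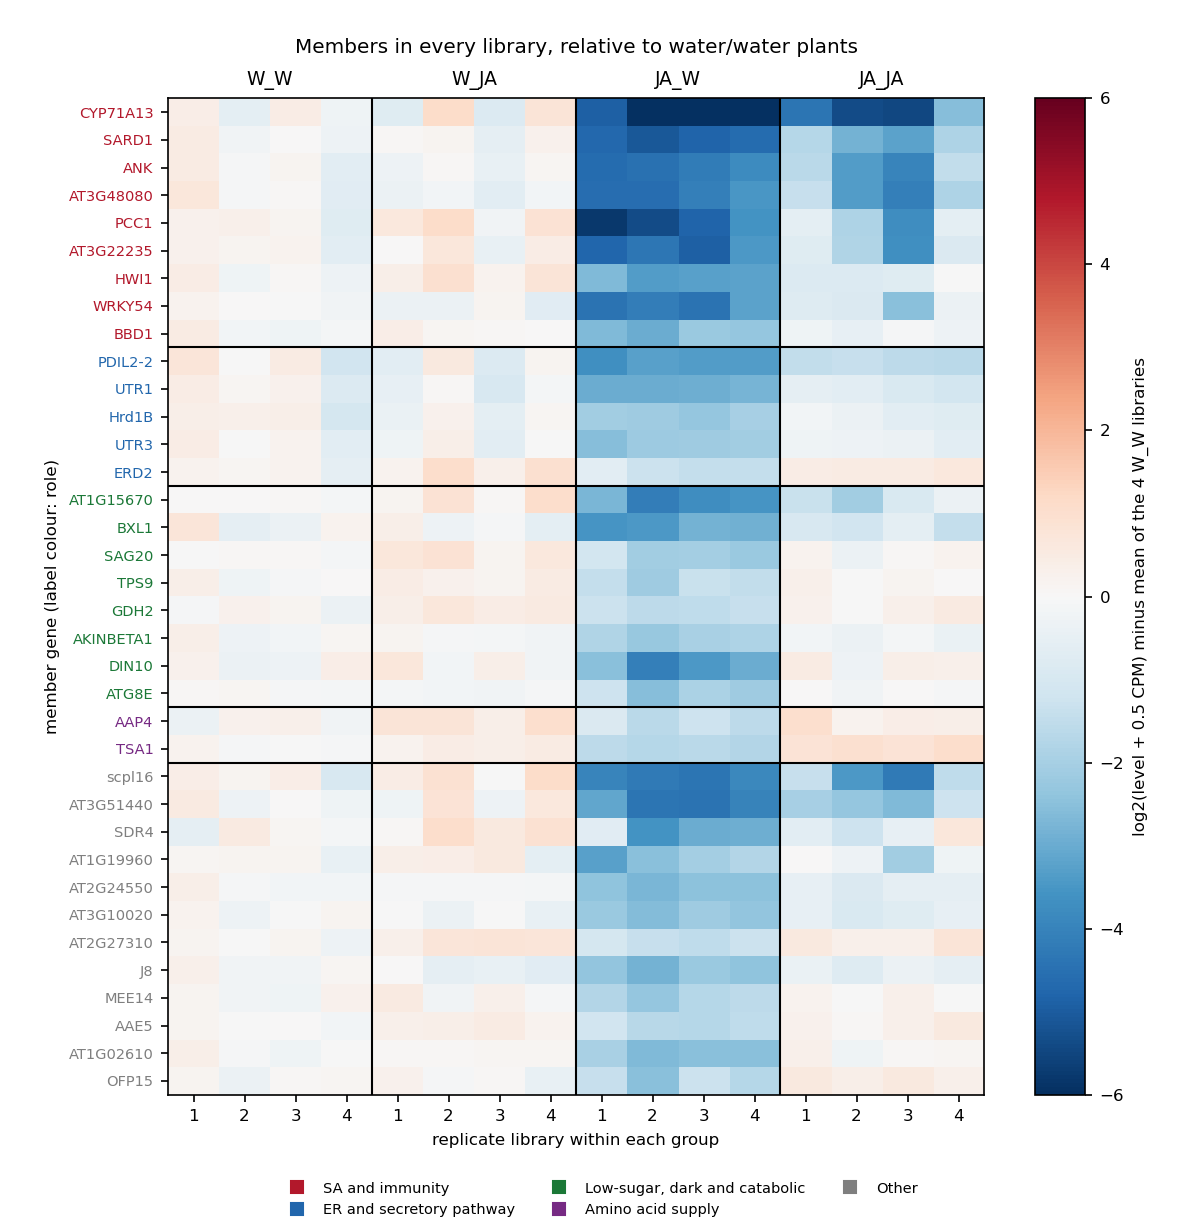
Level of the 36 members (rows, ordered by role) in the 16 libraries (columns, grouped by history and challenge), as log2 of TMM-scaled CPM plus 0.5 minus the mean of the 4 W_W libraries; the colour scale ends at the values shown on its bar. The 4 JA_W columns are below W_W for 36 of 36 members, and the JA_JA columns are near W_W for most low-sugar genes and lower for most SA genes.

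All 36 members were called lower in JA_W than in W_W, where 31.1% of all tested genes were; none was called higher, as 33.8% of all genes were. The median log2 difference was -2.52 against 0.05 over all genes. In 36 of 36 every JA_W library lay below every W_W library, as it did in 28.7% of all genes. Since the same JA_W libraries entered the rule, these counts describe the members and are not a test of them. Another 255 genes with a strong JA-history response also responded in water-history plants. Of these, 100 were called higher and 89 lower in JA_W than in W_W (median 0.02). Their bounds do not demand that JA_W be lower or JA_JA higher than in water-history plants. The contrast with the members thus follows in part from how the sets were chosen. All 7 genes with a water-history ratio below 0.67, where the bounds tie the histories as in the members, were called lower.

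Under the challenge the histories differed less. The rule sets the direction of this shift, since it demands that JA_JA stand higher against W_JA than JA_W does against W_W. Of the 36 members, 15 were called lower in JA_JA than in W_JA (21.2% of all genes), 1 was called higher (18.9% of all genes) and 20 were not called, with a median of -0.46 against 0.01 over all genes. Without JA_JA replicate 2 the number called lower was 10. A gene that was not called may still differ. In 15 members every JA_JA library was below every W_JA library (18.4% of all genes).

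The challenge contrasts were used by the rule, so their counts are a description. Of the 36, 35 were called higher in JA_JA than in JA_W (15.4% of all genes) and none lower (16.5% of all genes), with a median log2 difference of 2.04, and CYP71A13 was not (log2 2.49 ± 0.94, edgeR adjusted p = 0.0571). In water-history plants 7 were called higher after the challenge (13.9% of all genes) and none lower (12.9% of all genes), with 9 at an unadjusted p under 0.05; DESeq2 called 6 higher and 1 lower, and library totals without TMM 1 and 1. The 7 were TSA1, GDH2, AAP4, SAG20, ERD2, AAE5 and AT2G27310, with log2 differences from 0.36 to 0.72. The interaction was called for 32 members, all with the larger rise in JA-history plants (8.01% of all genes) and none the other way (10.4%).

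**Figure D2:**
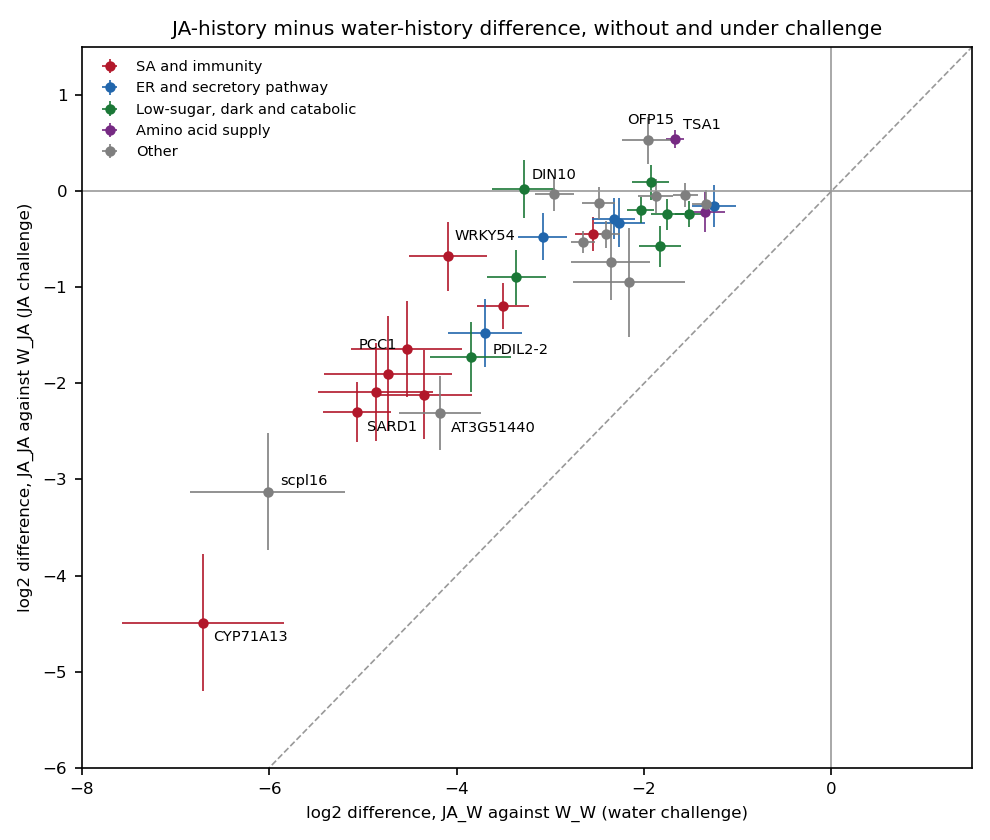
Log2 difference between JA-history and water-history plants without challenge (horizontal axis) and under JA challenge (vertical axis) for the 36 members, with standard errors as bars and colour for role. All points lie above the dashed line of equal difference, as the rule demands, and CYP71A13 and scpl16 are the lowest pair on both axes.

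The members were sorted into roles after they were known. The 9 genes tied to SA or immunity had the lowest role median in JA_W, at 0.957% to 17.1% of W_W (median 4.33%), and the lowest in JA_JA, at 4.45% to 73.3% of W_JA (median 26.8%). Of the 9, 7 were called lower in JA_JA than in W_JA, where 21.2% of all genes were; WRKY54 and BBD1 were not. Their JA_JA libraries were far apart: the highest library was 1.33 to 12.3 times the lowest (median 5.90), against 1.14 to 1.47 times in the ER group. JA_JA replicate 3 was the lowest of its group for 7 of the 9, and JA_W replicate 4 the highest of its group for 6. Without JA_JA replicate 3 the 9 genes came back to 5.54% to 76.3% (median 34%), and 7 were again called lower. With other libraries left out 1 at a time, 5 to 8 of the 9 were called lower, fewest without W_JA replicate 2 or JA_JA replicate 2.

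SARD1 (AT1G73805, on chromosome 1) encodes a factor of the calmodulin-binding protein 60 family that switches on SA synthesis genes. It was at 123, 74, 87.6 and 68.9 CPM in the W_W libraries and 89.1, 96.9, 58.8 and 102 in W_JA. After a JA history it was at 2.79, 2.06, 2.61 and 3.03 in JA_W and 26.3, 11.6, 8.91 and 23.6 in JA_JA. The 4 groups formed 3 levels with no overlap: both water-history groups were high and overlapped each other, JA_JA was between and JA_W was lowest. The history difference was log2 -5.07 ± 0.36 without challenge (edgeR adjusted p = 6.69e-08) and log2 -2.30 ± 0.31 under it (edgeR adjusted p = 8.62e-05), so SARD1 reached 20.3% of the W_JA level. On the list of SA synthesis, transport and turnover genes, SARD1 alone met the rule. Its close relative in function CBP60g averaged 6.7 CPM in JA_W and 8.57 in JA_JA. CBP60g was not called between them (log2 0.35 ± 0.26, edgeR adjusted p = 0.324), nor was ICS1, the SA synthesis enzyme (log2 0.36 ± 0.20, edgeR adjusted p = 0.193). Of the 15 other genes on that list, 5 were called higher in JA_JA than in JA_W (15.4% of all genes) and none lower (16.5%). Among these 5, EDS5 averaged 3.36 CPM in JA_W and 16.4 in JA_JA (log2 2.28 ± 0.28, edgeR adjusted p = 1.55e-05).

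WRKY54 (AT2G40750), a WRKY factor that works with WRKY70 downstream of SA, came back further. It was at 108, 95.6, 92.8 and 81.6 CPM in W_W and 72.7, 73.6, 105 and 58.5 in W_JA. It was at 3.87, 4.75, 3.95 and 9.56 in JA_W and 53.9, 50.5, 16.1 and 73 in JA_JA. JA_JA replicates 1, 2 and 4 lay within or just under the W_JA range, and replicate 3 stayed lower, nearer to JA_W. The mean was 62.4% of W_JA (log2 -0.68 ± 0.36, edgeR adjusted p = 0.148), and 76.3% without replicate 3. WRKY70 itself, at 233, 159, 10.5 and 69.5 CPM in the same group order, was called higher in JA_JA than in JA_W (log2 2.73 ± 0.32, edgeR adjusted p = 1.23e-05) but its water-history ratio in the deposited CPM that the rule reads, 0.627, was under the bound of 0.67; with TMM scaling it was 0.682, inside it.

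PCC1 (AT3G22231), named in the annotation as pathogen and circadian controlled, was at 529.9, 539, 485 and 262 CPM in W_W and 667, 926, 383 and 789 in W_JA. In JA_W it was at 7.39, 10.1, 15.1 and 35.8, and in JA_JA at 292, 122, 32.7 and 294. JA_JA replicates 1 and 4 reached the lowest W_W library, while replicate 3 lay within the JA_W range. JA_W was at 3.77% of W_W, and at 2.40% without JA_W replicate 4. The neighbouring gene AT3G22235, annotated as a cysteine-rich transmembrane module protein, followed with 33.9, 15.7, 3.88 and 30.5 CPM in JA_JA against 57, 88.8, 40.8 and 76.4 in W_JA. The pair sits on the minus strand of chromosome 3, at 7845823 to 7846833 and 7854419 to 7855814 of the TAIR10.1 assembly, with 7586 bases and no other coding gene between. The counts of both are uncertain. Of the 50-base stretches of AT3G22235 exons 85.7% occur elsewhere in the genome, and of those of PCC1 38.2%. How such reads were counted is not given in the sources used here.

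The promoters of SARD1 and PCC1 are shown because each holds 3 matches to the TGA motif TGACG on either strand, the core bound by TGA factors that partner NPR1 in SA responses. They are the 300 bases before the annotated gene start, from RefSeq TAIR10.1, read on the gene's strand; capitals mark the matches, and a match is a description, not a shown site. The SARD1 promoter lies at chr1:27749249-27749548 (minus strand) and that of PCC1 at chr3:7846834-7847133 (minus strand).
SARD1: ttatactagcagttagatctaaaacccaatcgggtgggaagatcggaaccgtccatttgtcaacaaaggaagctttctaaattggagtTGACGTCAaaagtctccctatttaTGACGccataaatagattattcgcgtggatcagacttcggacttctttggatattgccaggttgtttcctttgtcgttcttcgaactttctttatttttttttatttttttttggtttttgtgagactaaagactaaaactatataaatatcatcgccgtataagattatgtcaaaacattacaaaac
PCC1: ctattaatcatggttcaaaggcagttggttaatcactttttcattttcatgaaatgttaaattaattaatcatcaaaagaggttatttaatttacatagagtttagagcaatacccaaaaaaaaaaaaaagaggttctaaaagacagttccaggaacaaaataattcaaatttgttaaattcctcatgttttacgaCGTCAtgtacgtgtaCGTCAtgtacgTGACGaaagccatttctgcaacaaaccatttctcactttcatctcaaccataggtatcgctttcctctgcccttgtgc
In SARD1 2 of the matches overlap as TGACGTCA. The motif was present in 4 of the 9 SA-linked members, in 13 of all 36 (36.1%) and in 21.3% of the 27443 promoters of the same length.

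The next 3 SA-linked members stayed well below their W_JA level. ANK (AT5G54610), an ankyrin-repeat membrane protein, was at 306, 208, 247 and 140.3 CPM in W_W, 177, 226, 158 and 234 in W_JA, 8.27, 9.21, 11.2 and 15.4 in JA_W and 70.7, 20.9, 13.3 and 78.2 in JA_JA. Its JA_JA libraries were all below W_JA, with replicates 2 and 3 close to JA_W. AT3G48080, annotated as an alpha/beta-hydrolase, was at 35, 21, 22.9 and 13.4 CPM in W_W, 17, 19.4, 13.9 and 19.3 in W_JA, 0.443, 0.448, 0.802 and 1.49 in JA_W and 8.07, 1.67, 0.816 and 5.65 in JA_JA. JA_JA replicate 3 lay within the JA_W range, and JA_JA was at 23.5% of W_JA with all libraries and at 15.5% without replicate 1. HWI1 (AT1G70690), a plasmodesmal protein that closes cell-to-cell channels when SA is high, was steadier, at 22.9, 13.7, 17.4 and 13.3 CPM in W_W, 21.4, 32.3, 19.2 and 28.4 in W_JA, 2.16, 1.14, 1.28 and 1.3 in JA_W and 8.99, 9.12, 9.86 and 16.3 in JA_JA. All 4 of its JA_JA libraries were above JA_W and below W_JA (log2 -1.20 ± 0.24, edgeR adjusted p = 0.0012).

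CYP71A13 (AT2G30770), a cytochrome P450 of camalexin synthesis, stood lowest of all members in JA_W relative to W_W. It was at 66.2, 33.6, 67.6 and 41.4 CPM in W_W and 30.4, 108, 28.3 and 85 in W_JA. It was at 1.19, 0.209, 0.267 and 0.273 in JA_W and 1.9, 0.726, 0.653 and 8.03 in JA_JA. Its membership rests largely on JA_JA replicate 4, since the other 3 JA_JA libraries lay at or near the JA_W range and far below every water-history library. It stood at 0.957% of W_W and 4.45% of W_JA (log2 -4.49 ± 0.72, edgeR adjusted p = 0.000322). Both percentages moved with 1 library: JA_W was at 0.487% of W_W without JA_W replicate 1, and JA_JA at 1.77% of W_JA without JA_JA replicate 4. PAD3, the last enzyme of the same pathway, averaged 9.34 CPM in JA_W and 9.14 in JA_JA and did not meet the rule.

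BBD1 (AT1G75380), a nuclease of basal defence, was at 725, 450.4, 429.6 and 475 CPM in W_W and 679.6, 555, 530.1 and 515 in W_JA. It was at 81.9, 64, 107 and 103 in JA_W and 419.5, 362, 481 and 408 in JA_JA. The JA_W libraries were far below all others, and JA_JA was below W_JA in every library, although the difference was not called (log2 -0.45 ± 0.18, edgeR adjusted p = 0.0551). With DESeq2, library totals and 4 other settings it was called.

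The 5 ER and secretory genes had JA_JA libraries close to each other. They stood at 7.70% to 41.9% of W_W in JA_W (median 20%) and at 35.9% to 89.7% of W_JA in JA_JA (median 79.6%). All JA_JA libraries of each gene lay within 1.14 to 1.47 times of each other, while the water-history libraries were more scattered. W_W replicate 4 was the lowest and W_W replicate 1 the highest of its group for all 5, and W_JA replicates 1 and 3 were below replicates 2 and 4 for all 5. Without W_W replicate 4 the 5 stood at 6.41% to 37.6% of W_W (median 17.6%), and with 1 W_JA library left out their median in JA_JA was 72.7% (without replicate 3) to 88% (without replicate 2) of W_JA. Of the 5, 1 was called lower in JA_JA than in W_JA, a share near the 21.2% of all genes, and 2 without W_W replicate 4 or W_JA replicate 3.

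UTR1 (AT2G02810) and UTR3 (AT1G14360) carry UDP-sugars into the ER lumen, where glucose tagging of misfolded proteins needs them. UTR1 was at 67.2, 52.8, 59.6 and 27.7 CPM in W_W and 34.6, 52.5, 25.2 and 45.3 in W_JA. It was at 5.92, 5.86, 6 and 6.71 in JA_W and 33.3, 31.1, 26.2 and 23.1 in JA_JA. The JA_W libraries were close together and below all others, and JA_JA overlapped both water-history groups. UTR3 was at 82.2, 59.9, 70.7 and 38.4 CPM in W_W, 51, 77.3, 38.4 and 59.6 in W_JA, 9.79, 12.9, 13.4 and 14.1 in JA_W and 49.98, 49.5, 47 and 39.1 in JA_JA, with the same overlap. Neither was called between histories under challenge (log2 -0.47 ± 0.24 and log2 -0.29 ± 0.22, edgeR adjusted p = 0.129 and 0.309); UTR1 was called lower without W_JA replicate 3 or without W_W replicate 4.

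Hrd1B (AT1G65040), a ubiquitin ligase that clears misfolded proteins from the ER, was at 107, 102, 107 and 40.2 CPM in W_W and 63.4, 97.8, 54.5 and 88.8 in W_JA. It was at 19.3, 18.4, 16.2 and 20.1 in JA_W and 73.1, 65.8, 53.8 and 49.9 in JA_JA. W_W replicate 4 was the low one of its group, and JA_JA lay within the spread of the water-history libraries. ERD2 (AT1G29330), a receptor that returns ER proteins from the Golgi, was at 17.3, 16, 17.2 and 9.85 CPM in W_W, 17.3, 31, 18.2 and 29.2 in W_JA, 9.19, 5.74, 5.14 and 5.16 in JA_W and 20.5, 21, 21 and 23.4 in JA_JA. It was the mildest case, at 41.9% of W_W in JA_W, and JA_JA lay above every W_W library. PDIL2-2 (AT1G04980), a protein disulfide isomerase, was at 85, 50.7, 71.7 and 22.7 CPM in W_W, 32.9, 78.8, 29.4 and 57.6 in W_JA, 3.6, 4.93, 4.63 and 4.55 in JA_W and 18.3, 19.5, 16.8 and 16.6 in JA_JA. Its JA_JA libraries were tightly grouped and below every W_JA library (log2 -1.48 ± 0.35, edgeR adjusted p = 0.00489).

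The promoters of 4 of the 5 ER genes are shown because they hold the G-box CACGTG, a palindrome bound by bZIP and MYC factors; capitals mark it. The UTR1 promoter lies at chr2:801227-801526 (plus strand), that of UTR3 at chr1:4913168-4913467, that of ERD2 at chr1:10261233-10261532 and that of Hrd1B at chr1:24163670-24163969 (all 3 on the minus strand), again from RefSeq TAIR10.1.
UTR1: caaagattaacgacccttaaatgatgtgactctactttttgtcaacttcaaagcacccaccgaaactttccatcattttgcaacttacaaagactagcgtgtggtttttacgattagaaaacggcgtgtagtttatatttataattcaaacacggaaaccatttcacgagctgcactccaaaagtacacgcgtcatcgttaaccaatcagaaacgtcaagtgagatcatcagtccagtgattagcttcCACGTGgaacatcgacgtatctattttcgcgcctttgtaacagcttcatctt
UTR3: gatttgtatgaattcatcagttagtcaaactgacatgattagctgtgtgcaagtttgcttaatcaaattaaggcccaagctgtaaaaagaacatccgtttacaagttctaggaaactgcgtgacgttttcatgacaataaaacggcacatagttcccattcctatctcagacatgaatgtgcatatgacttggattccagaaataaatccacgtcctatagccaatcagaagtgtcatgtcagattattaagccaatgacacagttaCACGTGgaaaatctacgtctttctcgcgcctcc
ERD2: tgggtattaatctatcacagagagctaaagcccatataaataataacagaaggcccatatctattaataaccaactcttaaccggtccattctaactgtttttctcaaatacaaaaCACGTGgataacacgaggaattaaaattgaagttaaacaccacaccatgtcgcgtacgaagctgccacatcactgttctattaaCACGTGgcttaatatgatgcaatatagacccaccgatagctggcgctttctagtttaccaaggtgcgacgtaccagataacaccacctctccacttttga
Hrd1B: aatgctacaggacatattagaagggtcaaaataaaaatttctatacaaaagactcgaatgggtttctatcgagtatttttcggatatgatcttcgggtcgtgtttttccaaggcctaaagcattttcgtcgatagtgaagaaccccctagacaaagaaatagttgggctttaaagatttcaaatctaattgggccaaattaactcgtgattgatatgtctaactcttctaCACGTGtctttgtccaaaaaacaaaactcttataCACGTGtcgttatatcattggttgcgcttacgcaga
ERD2 and Hrd1B hold 2 copies each. The G-box was present in 7 of 36 members (19.4%) and in 7.09% of all 27443 promoters; the other 3 were AAE5, OFP15 and scpl16, and none was an SA-linked or low-sugar gene. PDIL2-2 had none within 300 bases.

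The 8 genes linked to low sugar, darkness or catabolism came back close to the water-history level in most cases. They stood at 6.93% to 34.8% of W_W in JA_W (median 25.3%) and at 30.3% to 107% of W_JA in JA_JA (median 84.7%), and 3 were called lower under challenge, where 21.2% of all genes were: BXL1, SAG20 and AT1G15670. That count rests on single libraries: it was 1 without W_JA replicate 1, JA_JA replicate 2 or JA_JA replicate 4, and 2 or 3 without any other single library. JA_W replicate 1 was the highest of its group for 6 of the 8. Without it they stood at 4.90% to 33.7% of W_W (median 21.7%).

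DIN10 (AT5G20250), a raffinose synthase family gene named for its induction in the dark, was at 66.7, 43.8, 44.2 and 72.5 CPM in W_W and 87.6, 49.3, 71.7 and 47 in W_JA. It was at 9.27, 2.75, 4.6 and 6.62 in JA_W and 77.1, 44.3, 70.4 and 67.5 in JA_JA. JA_JA overlapped both water-history groups, with replicate 1 above every W_W library and replicate 2 below every W_JA library, and every JA_W library was far below (log2 -3.29 ± 0.34, edgeR adjusted p = 1.22e-06). Under challenge the history difference was log2 0.02 ± 0.30, the smallest in size of any member.

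ATG8E (AT2G45170), which coats autophagosomes, was at 43.3, 43.6, 38.6 and 37.5 CPM in W_W and 36.9, 36.7, 35 and 38.1 in W_JA. It was at 16.9, 6.46, 10.5 and 8.77 in JA_W and 41.6, 35, 40.8 and 39 in JA_JA. Again JA_JA overlapped both water-history groups. AKINBETA1 (AT5G21170), a regulatory subunit of SnRK1, was at 40.8, 26.5, 28.4 and 35.5 CPM in W_W, 36.5, 30.5, 29.6 and 27.8 in W_JA, 8.96, 6.34, 8.05 and 8.56 in JA_W and 28.8, 25.3, 29.7 and 24.5 in JA_JA. TPS9 (AT1G23870), of the trehalose-phosphate synthase family, was at 11.2, 7.16, 8.33 and 8.93 CPM in W_W, 12.2, 10.5, 10.04 and 12.5 in W_JA, 2.96, 1.64, 3.15 and 2.82 in JA_W and 11.1, 8.55, 9.76 and 8.84 in JA_JA. For both, JA_JA and W_JA overlapped and JA_W stood apart below them. GDH2 (AT5G07440), a glutamate dehydrogenase that feeds amino acid carbon into respiration, was at 17.8, 22.9, 21.3 and 14.4 CPM in W_W, 23.9, 30.8, 26 and 27.9 in W_JA, 7.3, 6.04, 6.32 and 6.92 in JA_W and 22.7, 18.3, 23.5 and 27.6 in JA_JA. Its JA_JA libraries reached 84.8% of W_JA on average and overlapped them.

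**Figure D3:**
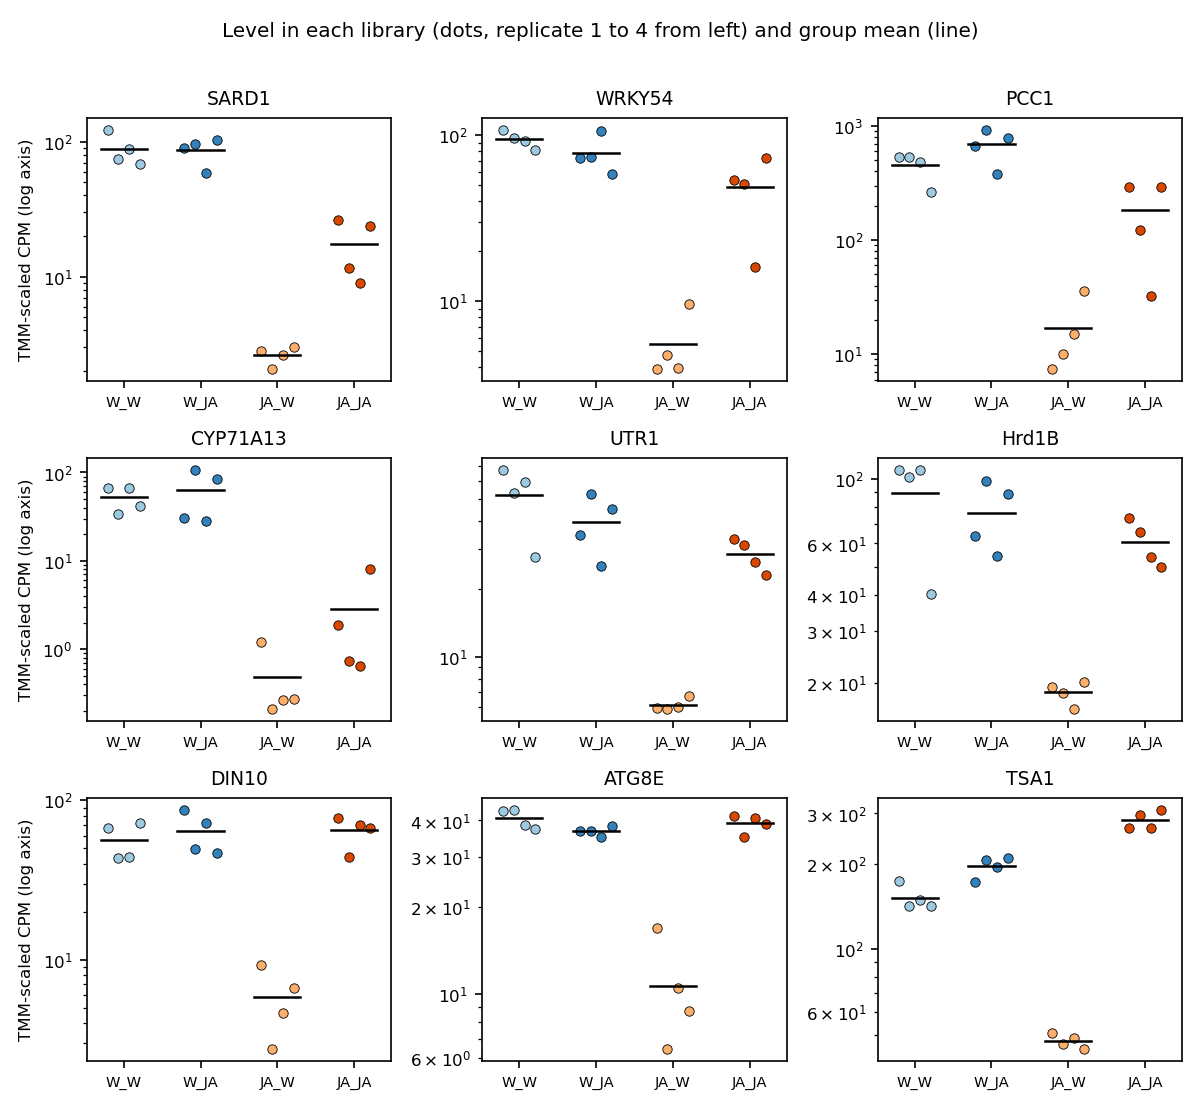
TMM-scaled CPM of 9 members in every library (dots) with group means (lines), on logarithmic axes. JA_W is the lowest group in all 9; JA_JA overlaps the water-history libraries for UTR1, Hrd1B, DIN10 and ATG8E, lies above them for TSA1 and below them for SARD1 and CYP71A13, and overlaps them in some libraries for WRKY54 and PCC1.

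The other low-sugar members were those called lower in JA_JA than in W_JA. AT1G15670, a kelch-repeat gene of the KMD family of F-box proteins, was at 19.3, 19.1, 19.9 and 17.1 CPM in W_W, 21.1, 35.2, 19.5 and 40.3 in W_JA, 2.41, 0.598, 0.98 and 1.18 in JA_W and 7.07, 4.01, 9.66 and 14.5 in JA_JA. Its JA_JA libraries were above JA_W and below W_JA without overlap (log2 -1.72 ± 0.36, edgeR adjusted p = 0.00219). BXL1 (AT5G49360), a cell wall beta-xylosidase, was at 85.1, 34.7, 39.6 and 58.4 CPM in W_W, 64.8, 41.2, 48.8 and 33.7 in W_JA, 3.87, 4.21, 6.62 and 6.49 in JA_W and 26.4, 23, 33.4 and 18.6 in JA_JA. SAG20 (AT3G10985), a senescence-associated gene, was at 58, 62.4, 61.2 and 55 CPM in W_W, 95.9, 109.5, 66.2 and 92.5 in W_JA, 27, 13.4, 13.9 and 12.2 in JA_W and 68.7, 46.3, 62.2 and 67.7 in JA_JA. JA_JA reached 53.8% of W_JA for BXL1, with every library below W_JA, and 67.3% for SAG20, where the challenged groups overlapped. For SAG20 the JA_JA mean (61.2 ± 10.3 CPM) was near that of W_W (59.1 ± 3.34), and W_JA was higher than both (91.0 ± 18.1). The SAG20 call was marginal (log2 -0.57 ± 0.21, edgeR adjusted p = 0.043) and was lost under most alternatives.

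TSA1 (AT3G54640, the alpha subunit of tryptophan synthase) was the member called higher in JA_JA than in W_JA. It was at 173, 142, 149 and 142 CPM in W_W and 173, 206, 194 and 209 in W_JA. It was at 50.8, 46.4, 48.6 and 44.5 in JA_W and 268, 296, 267 and 309.6 in JA_JA. The JA_W libraries were below and the JA_JA libraries above every water-history library. The history difference turned from log2 -1.67 ± 0.09 without challenge to log2 0.54 ± 0.09 under it (edgeR adjusted p = 4.17e-09 and 0.000325). Tryptophan is the precursor of indole glucosinolates and camalexin. Of the 7 other tryptophan synthesis genes, 6 were called higher in JA_JA than in JA_W (15.4% of all genes). In JA_W against W_W, 5 were called lower and 1 higher (31.1% and 33.8% of all genes). In JA_JA against W_JA, 1 was called higher and none lower (18.9% and 21.2% of all genes), the 1 near the share of all genes. That list was made after TSA1 was seen. AAP4 (AT5G63850), an amino acid permease, was at 46.5, 71, 74.9 and 50.9 CPM in W_W, 104, 101, 76.8 and 118 in W_JA, 32, 18.9, 24.8 and 19.5 in JA_W and 119, 68, 79.6 and 77.1 in JA_JA, and the challenged groups overlapped.

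The remaining 12 members share no role. They stood at 1.54% to 39.4% of W_W in JA_W and at 11.5% to 144% of W_JA in JA_JA (median 82.2%), and 4 were called lower under challenge, against 21.2% of all genes. OFP15 (AT2G36050), of the OVATE family of growth regulators, was at 6.11, 4.12, 5.73 and 6 CPM in W_W, 6.64, 5.07, 5.81 and 3.81 in W_JA, 1.8, 0.538, 1.96 and 1.3 in JA_W and 8.42, 7.04, 8.49 and 6.79 in JA_JA. Every JA_JA library was above every W_JA library, but the difference was not called (log2 0.53 ± 0.24, edgeR adjusted p = 0.0936). AT1G02610, a RING finger gene, was at 8.2, 5.91, 5.15 and 6.26 CPM in W_W, 6.68, 6.61, 6.99 and 6.88 in W_JA, 1.25, 0.598, 0.713 and 0.698 in JA_W and 7.9, 5.11, 6.63 and 6.92 in JA_JA, with full overlap of the challenged groups.

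Of the same 12, scpl16 (AT3G12220), a serine carboxypeptidase-like gene, had the shape of the SA-linked genes. It was at 15.1, 12.9, 15 and 5.56 CPM in W_W, 15.4, 21.5, 11.2 and 25.1 in W_JA, 0.249, 0.12, 0.0594 and 0.303 in JA_W and 4.02, 0.599, 0.131 and 3.56 in JA_JA. JA_JA replicate 3 was within the JA_W range, and every JA_JA library was below W_JA. AT3G51440, annotated as a calcium-dependent phosphotriesterase, was at 59.9, 32.9, 41.5 and 33.8 CPM in W_W, 34.1, 71.3, 33.3 and 63 in W_JA, 4.23, 1.46, 1.43 and 2.09 in JA_W and 10.03, 7.73, 6.17 and 16.8 in JA_JA. Every JA_JA library was below W_JA, and the mean reached 20.2% of W_JA (log2 -2.31 ± 0.38, edgeR adjusted p = 0.000428). SDR4 (AT3G29250), a dehydrogenase family gene, was at 24.4, 53.6, 39 and 33.4 CPM in W_W, 37.4, 75.1, 54.4 and 69.6 in W_JA, 22.5, 2.51, 4.1 and 4.34 in JA_W and 23.3, 15, 25.5 and 59.1 in JA_JA. JA_W replicate 1 lay within the JA_JA range, and JA_W was at 22.4% of W_W with that library and at 9.72% without it.

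**Figure D4:**
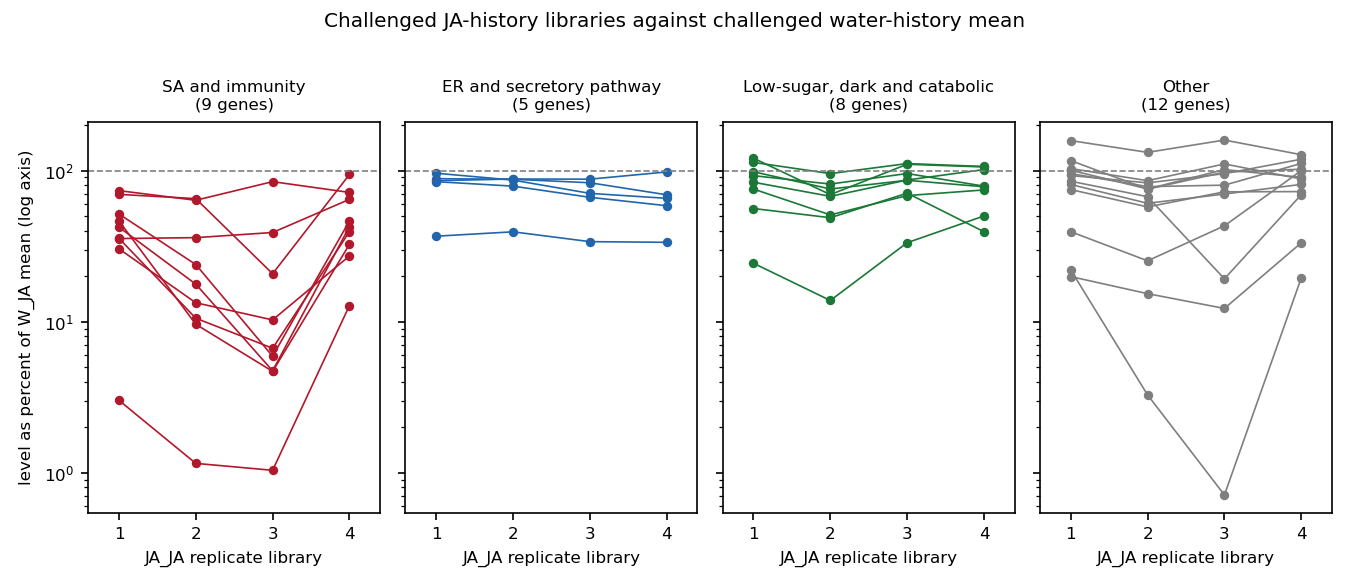
Level of each member in the 4 JA_JA libraries as percent of its mean in the 4 W_JA libraries (dashed line, 100), on a logarithmic axis, for 4 role groups; lines join the same gene and replicates have no order. Of the 9 SA and immunity genes, 7 are lowest in replicate 3, and the 5 ER genes lie close to level lines.

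Of the rest, J8 (AT1G80920), a DnaJ-type chaperone gene, was at 186, 130.1, 128 and 164 CPM in W_W, 151, 105, 109.7 and 92.3 in W_JA, 28.5, 20.4, 31.7 and 28.1 in JA_W and 115, 86.5, 116 and 103 in JA_JA. AAE5 (AT5G16370), an acyl-activating enzyme gene, was at 21.7, 19.3, 19.8 and 17.6 CPM in W_W, 24.6, 25.3, 27.6 and 22.8 in W_JA, 8.52, 5.77, 5.64 and 6.58 in JA_W and 23.3, 20.8, 23.9 and 29.8 in JA_JA. J8, AAE5, MEE14 (AT2G15890) and the F-box gene AT2G27310 reached 91.3% to 97.4% of W_JA and were not called, and their challenged groups overlapped. MEE14 was at 67.4, 52.4, 51.1 and 73.2 CPM in W_W, 87, 52.2, 75.6 and 57.8 in W_JA, 17.3, 11.6, 17.8 and 19.8 in JA_W and 70.3, 58.4, 75.4 and 59.9 in JA_JA. AT2G27310 was at 40.1, 36.1, 40.7 and 28.8 CPM in W_W, 44.9, 59.9, 61.1 and 59.7 in W_JA, 17.1, 13.4, 12.4 and 14.6 in JA_W and 53.9, 44.2, 45.2 and 62.9 in JA_JA. JA_W was the lowest group for both without overlap.

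The last 3 are given no role here. AT2G24550 was at 41.8, 30.6, 28.9 and 28.9 CPM in W_W, 30.9, 30.4, 30.2 and 29.3 in W_JA, 5.67, 4.3, 5.37 and 5.34 in JA_W and 22.6, 17.4, 21.8 and 21.9 in JA_JA. W_W replicate 1 stood above and JA_JA replicate 2 below the other libraries of their group. JA_JA lay below W_JA in every library at 69.3% of its mean, and the gene was called lower (log2 -0.53 ± 0.12, edgeR adjusted p = 0.00244). AT3G10020 was at 45.9, 32.6, 39.2 and 44.4 CPM in W_W, 40.02, 31, 39.3 and 29.4 in W_JA, 8.24, 6.13, 8.73 and 7.5 in JA_W and 28.2, 21.2, 24.4 and 28.3 in JA_JA. It reached 73.2% of W_JA and was called lower (log2 -0.45 ± 0.14, edgeR adjusted p = 0.0164). AT1G19960 was at 62.4, 64.7, 65.8 and 42 CPM in W_W, 73.1, 77.4, 86.1 and 38.5 in W_JA, 5.53, 9.63, 13.8 and 17 in JA_W and 58.5, 46.2, 13.2 and 47.6 in JA_JA. It was low in JA_JA replicate 3, like most SA-linked genes, reached 60.2% of W_JA and was not called.

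Most genes of the same pathways that are not members were likewise called lower after a JA history. Over all tested genes, 31.1% were called lower and 33.8% higher in JA_W than in W_W, 15.4% higher and 16.5% lower in JA_JA than in JA_W, and 21.2% lower and 18.9% higher in JA_JA than in W_JA, and the counts are read beside these shares. Of 15 other SA synthesis, transport and turnover genes, 11 were called lower and 3 higher in JA_W than in W_W; 5 were called higher and none lower in JA_JA than in JA_W. Of 19 SA perception and output genes 18 were called lower in JA_W, 6 were called higher and 1 lower with the challenge, and 14 were still called lower in JA_JA than in W_JA. Among 20 tested WRKY genes of defence other than WRKY54 the counts were 19 lower in JA_W, 6 higher and 3 lower with the challenge, and 17 lower in JA_JA than in W_JA; the 3 are near the share of all genes. PR1 was not called between JA_W and JA_JA (log2 2.31 ± 1.80, edgeR adjusted p = 0.355). Of 26 cysteine-rich receptor kinases, 23 were called lower in JA_W, 2 higher and 7 lower with the challenge, and 23 lower in JA_JA than in W_JA.

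A further pair of lists was made after the members were seen. Of 13 other ER folding and secretion genes, 13 were called lower in JA_W, 7 higher and none lower with the challenge in JA-history plants, and 12 lower in JA_JA than in W_JA; the ER chaperone gene BIP2 averaged 362, 226, 58.9 and 107 CPM in W_W, W_JA, JA_W and JA_JA. Of 13 other low-sugar and dark genes tested, 11 were called lower in JA_W, 11 higher and none lower with the challenge, and 5 lower and 3 higher in JA_JA than in W_JA, the 3 near the share of all genes. KMD1, a relative of AT1G15670, averaged 73, 46.1, 9.07 and 30.1 CPM, and its water-history ratio was under 0.67 both in the deposited CPM (0.586) and with TMM scaling (0.634). By contrast, none of 35 tested genes of JA synthesis, turnover and repression was a member: 32 were called higher with the challenge in water-history plants (13.9% of all genes) and 30 in JA-history plants (15.4%). The lists share libraries with the members, and no list was compared with another.

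The other motifs searched are given as the share of members against that of all 27443 promoters. Both strands of the 300 bases were searched. The W-box TTGACC was present in 8 members (22.2%, against 14%), TTGACT in 11 (30.6%, against 21.9%), the GCC box GCCGCC in 1 (2.78%, against 2.26%), AACGTG in 4 (11.1%, against 8.71%), CGCGT in 4 (11.1%, against 7.89%), CCGAC in 3 (8.33%, against 13.9%) and AATATCT in 5 (13.9%, against 11.8%). Motifs added once the members were known gave ACTCAT in 6 (16.7%, against 14.8%), TATCCA in 10 (27.8%, against 16.2%), GAAGAAG in 5 (13.9%, against 13.3%) and CCACG, which can overlap the G-box, in 8 (22.2%, against 17.0%). TATCCA, a motif of low-sugar promoters, was in 1 of the 8 low-sugar genes and 4 of the 9 SA-linked genes. ACTCAT, searched as a motif of bZIP factors, was in none of the 8 and in 4 of the 9. These are shares, with no test.

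In the genome, 12 members lay on chromosome 1 (which holds 7156 coding genes), 8 on chromosome 2 (4317) and 9 on chromosome 3 (5460). Chromosome 5 (6331) held 7 and chromosome 4 (4180) none, and this division was not tested. PCC1 and AT3G22235 were the one pair within 5 coding genes of each other. Stretches found elsewhere in the genome were otherwise few. They made up 14% of the 50-base stretches of AAE5 exons and 13.2% of those of scpl16. The share was at most 1.43% in 4 more members, and 28 had none. Members that overlap a gene on the other strand numbered 9: UTR3, ERD2, SARD1, J8, CYP71A13, scpl16, AT3G48080, DIN10 and ANK. Whether the counting used strand is not given in the sources used here, so reads of these genes and their partners may not have been told apart.

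Some markers of cell types were called higher in JA_W than in W_W. The summed level of the myrosin cell genes TGG1 and TGG2 was 2085 to 2472 CPM in W_W, 2268 to 2667 in W_JA, 4251 to 5355 in JA_W and 5532 to 6423 in JA_JA; both were called higher in JA_W than in W_W. In the same comparison 2 of 3 guard cell markers, 1 of 4 photosynthetic markers and 1 of 3 dividing cell markers were called higher. Over all tested genes 33.8% were, and the photosynthetic and dividing cell counts were near or below that share. The dividing cell markers summed to at most 5.97 CPM in any library. None of the phloem companion or tracheary element markers was called. All markers were detected in every group. Their part in the members' levels was not tested.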

How the data were processed

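Poly(A) RNA of 16 leaf libraries (4 groups of 4) was sequenced as 50 bp single-end reads, per the labels. Each deposited table holds raw read counts per gene and CPM (the count scaled to the library total), both made by the authors; recomputed CPM differed from the deposited values by at most 5.09e-11. The submitters' processing notes name the TAIR10 build, HTSeq 0.9.1, STAR 2.6.1b and Trimmomatic 0.38; settings and strandedness are not given in the sources used here.

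Members were found from the deposited CPM. Counts were filtered with filterByExpr by group (minimum count 10, minimum total 15), which kept 19224 genes and removed 15038, and scaled with TMM (factors 0.888 to 1.14). One model with 4 group means was fitted to all 16 libraries in edgeR 4.0.16 under R 4.3.3 (quasi-likelihood F-test, robust, biological coefficient of variation 15.4%, 12 residual degrees of freedom), with Benjamini-Hochberg adjustment over all genes and a threshold of 0.05. The model and the rule were also run on simulated data, with the same spread for every gene and falls in JA_W placed only in well-counted genes. That run does not cover members with few reads or widely scattered libraries. Percent of the water-history level was computed from the fitted log2 difference. TMM differed between groups by composition: mean log2 factors were 0.12 in W_W, -0.0044 in W_JA, -0.01 in JA_W and -0.10 in JA_JA.

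The labels call the replicates biological; whether separate sowings lay behind them is not stated, so p-values measure the spread between these pools of 2 plants. No replicates were copies (pairs of them differed by a chi-squared of 6.05 to 75 a gene). Alternatives were DESeq2 1.42.0, RLE and upper-quartile scaling, library totals, 2 other filters, the replicate number as a block, each library left out, fits restricted to the compared groups, and other readings of the rule.

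The members and gene lists were chosen with earlier results of these data known, and the role groups, the ER, low-sugar and tryptophan lists and 4 motifs after the members were seen. Genes were named by level, ratio, p or size of the history difference, list membership and nearness to a bound of the rule. The remaining members were named so that all 36 are accounted for. CBP60g, ICS1, EDS5, WRKY70, PAD3, BIP2 and KMD1 were named after their values were seen. Names, positions and the 300 bases before each gene start came from RefSeq TAIR10.1, where all 36 members were found; the deposited tables hold no coordinates.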

Additional observations from a re-analysis of the deposited data

Results flagged for a closer look

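Each member was looked at in each group for a library whose gap to the nearest other library took up more of the group's range than Dixon's 95% critical value allows. Of 144 such looks 15 were past that value, where chance gives about 5%. In JA_W replicate 1, SAG20 was at 27 CPM (other libraries 12.2 to 13.9), SDR4 at 22.5 (2.51 to 4.34), ERD2 at 9.19 (5.14 to 5.74), HWI1 at 2.16 (1.14 to 1.3) and CYP71A13 at 1.19 (0.209 to 0.273). In JA_W replicate 4, WRKY54 was at 9.56 CPM (3.87 to 4.75) and UTR1 at 6.71 (5.86 to 6). In JA_JA replicate 4, HWI1 was at 16.3 CPM (8.99 to 9.86) and CYP71A13 at 8.03 (0.653 to 1.9), and in JA_JA replicate 2 AT2G24550 was at 17.4 (21.8 to 22.6).

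Among water-history libraries, BBD1 was at 725 CPM in W_W replicate 1 (429.6 to 475 in the others) and AT2G24550 at 41.8 (28.9 to 30.6). In W_W replicate 4, Hrd1B was at 40.2 CPM (102 to 107) and AT1G19960 at 42 (62.4 to 65.8). In W_JA replicate 1, AT2G27310 was at 44.9 CPM (59.7 to 61.1).

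Of the reference genes, VSP2 had a smaller challenge effect in JA-history than in water-history plants by an interaction of log2 -3.65 ± 0.33 (edgeR adjusted p = 1.05e-05), with its unchallenged level higher after a JA history.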

How the results depend on the processing

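The 36 members were called lower in JA_W than in W_W under every alternative fit. Of 21 other readings of the rule, 9 gave a set in which all genes were called lower. With 1 CPM added, or without W_JA replicate 3, 1 gene of the set was called higher. The number lower in JA_JA than in W_JA was 15, 14 to 16 under other tools, scalings and filters and 10 to 16 with 1 library left out. Members higher in JA_JA than in W_JA numbered 1, but 2 in the fit of only the groups compared and 1 to 2 with 1 library left out. In the challenge of water-history plants 7 were higher, but 1 with library totals and 3 to 7 with 1 library left out (fewest without W_W replicate 4); 0 were lower, but 1 with DESeq2, 1 with library totals, 1 with the replicate block and 0 to 1 with 1 library left out. The cause of these shifts was not tested. No member's history difference changed sign where the main or the alternative fit called it. Uncalled differences could change sign: under challenge DIN10 was at 101% of W_JA with all libraries and at 98.6% without JA_JA replicate 3. Over all alternatives 22 values lost a call (SAG20, PCC1, BXL1, AT3G22235 and AT3G10020) and 11 gained one (BBD1, UTR1, SDR4 and OFP15), all of them under challenge.

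The rule gave 36 members, 54 with 0.1 CPM added, 28 with 1 CPM added, 44 with medians, 40 with TMM-scaled CPM (29 shared; PCC1, AAP4, SAG20, AT2G27310, SDR4, ERD2 and AT1G15670 were lost) and 27 to 60 with 1 library left out. Same-numbered libraries of different groups correlated at -0.33 to 0.34. Differently numbered libraries were not compared, so these values cannot settle whether the numbers pair samples. With the replicate block 36 were lower without challenge, 16 lower and 1 higher under it, 34 higher in JA_JA than in JA_W and 32 in the interaction. The interaction has no fit of only 2 groups. Depth limits the lowest members: in JA_W scpl16 averaged 0.183 CPM and CYP71A13 0.485.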

Other observations

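The reverse rule, a ratio of at least 3 in water-history plants with a ratio between 0.67 and 1.5 in JA-history plants, found 12 genes against 36. Of these 12, 9 were called higher and 1 lower in JA_W than in W_W (edgeR, median log2 difference 1.93), where 33.8% of all genes were called higher and 31.1% lower. In JA_JA against W_JA, 4 were called higher and 3 lower (median 0.03), where 18.9% and 21.2% of all genes were. The same libraries chose them, so the counts are a description.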
